A study of Homo sapiens with 9 samples.

Results

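The histone genes of the array were examined in H295R cells, a steroid-producing line grown from a human adrenocortical carcinoma. They are the genes whose symbol in the probe annotation, in its older or current form, has a histone prefix such as HIST1H, H1-, H2AC, H2BC, H3C, H4C, H2AZ, H2AX or H3-3. Each was represented by its brightest probe set that carries 1 gene symbol, taken by the mean log2 value over all 9 arrays, so measured levels chose the probe set but group differences did not. The prefixes matched 54 symbols. Of these, 1 noncoding gene was left out and 3 pseudogenes were counted apart, which left 50 protein-coding histone genes of the 19775 genes tested. By their older names 42 were replication-dependent, 7 were replication-independent (H1-7, H1-8, H1-10, H2AX, H2AZ1, H2AZ2 and H3-3A), and H2BC12L on chromosome 21 fell in neither class. By family there were 9 linker H1 genes, 11 H2A, 14 H2B, 8 H3 and 8 H4 genes. On chromosome 6 lay 40 of the 50.

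The study asked whether inhibitors of the cholesteryl ester transfer protein (CETP) switch on renin-angiotensin-aldosterone signalling in adrenal cells. There were 3 groups of 3 arrays, each at 3 h. The first group received 100 nM of the test compound CP-529414, which is torcetrapib, a CETP inhibitor; the labels add a code to it that was not decoded here. The second received 100 nM angiotensin II, the peptide hormone that drives aldosterone secretion, and the third received dimethyl sulfoxide (DMSO), the vehicle. All arrays came from the same cancer cell line, so a single line, dose and time stand behind every value. Nothing in the labels ties the 3 arrays of a group to separate cultures, so the p-values reflect the scatter of these arrays, part or all of which may be technical.

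Core histones H2A, H2B, H3 and H4 form the octamer that DNA wraps around, and a linker histone H1 sits where DNA enters and leaves that particle. Replication-dependent histone genes are clustered, are transcribed mostly in S phase, and give mRNAs that mostly end in a stem-loop bound by the stem-loop binding protein instead of a poly(A) tail, although some also give polyadenylated transcripts. Replication-independent genes such as those of H2A.Z and H3.3 give polyadenylated mRNAs throughout the cell cycle. Standard labelling for these arrays starts from the poly(A) tail, so the share of each histone mRNA that was labelled is unknown. Bulk RNA was measured, so fewer cells in S phase and less histone RNA per cell cannot be told apart.

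The start-proximal promoter sequence of H1-3, the linker gene with the largest difference, is shown with those of 3 related linker genes and of H2BC17, the core gene with the largest difference between torcetrapib and angiotensin II. Each line holds the 150 bases before the RefSeq gene start (assembly GRCh38.p14), 5′ to 3′ on the gene's strand. The windows are chr6:26234988-26235137 on the minus strand for H1-3, chr6:26056471-26056620 on the minus strand for H1-2, chr6:26156179-26156328 on the plus strand for H1-4, chr6:27867589-27867738 on the minus strand for H1-5 and chr6:27893275-27893424 on the plus strand for H2BC17. Capitals mark the H1 box (AAACACA), the CCAAT box and a TATA-type stretch (TATANA) on the gene's strand, and in H2BC17 they also mark the octamer ATTTGCAT on either strand.
H1-3: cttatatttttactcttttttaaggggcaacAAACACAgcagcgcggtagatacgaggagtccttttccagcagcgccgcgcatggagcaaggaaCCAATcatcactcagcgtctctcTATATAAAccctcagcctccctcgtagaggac
H1-2: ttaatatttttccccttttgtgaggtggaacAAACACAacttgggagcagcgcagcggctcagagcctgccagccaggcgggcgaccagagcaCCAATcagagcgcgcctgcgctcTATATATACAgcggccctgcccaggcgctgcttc
H1-4: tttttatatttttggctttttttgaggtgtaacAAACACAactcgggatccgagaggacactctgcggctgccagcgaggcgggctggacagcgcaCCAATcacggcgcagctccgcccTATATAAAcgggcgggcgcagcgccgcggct
H1-5: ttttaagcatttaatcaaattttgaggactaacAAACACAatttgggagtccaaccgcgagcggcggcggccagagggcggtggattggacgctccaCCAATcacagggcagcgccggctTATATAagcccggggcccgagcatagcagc
H2BC17: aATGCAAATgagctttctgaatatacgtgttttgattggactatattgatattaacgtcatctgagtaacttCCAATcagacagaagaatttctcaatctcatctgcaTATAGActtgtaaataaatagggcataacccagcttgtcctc
The H1 box, a motif known from linker histone promoters, started 119 bases before the gene start in H1-3 and H1-2 and 117 bases before it in H1-4 and H1-5.

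Within the 250 bases before the start, with both strands searched, some motifs were spread over the families and others were not. RefSeq promoters were matched to 47 of the 50 members. The H1 box was in all 6 promoters of replication-dependent linker genes and in none of those of replication-dependent H2A, H2B, H3 and H4 genes, against 4.82% of all 35116 promoters in the table. In H1-1 its only match was on the opposite strand, starting 183 bases before the gene start. It was also in 1 of 7 replication-independent promoters, that of H1-7, on the opposite strand at 82 bases. CCAAT was in 41 of 47 members (87.2%), against 11240 of the 35116 promoters, and TATANA was in 39 of 47 (83.0%), against 17.7%. The octamer was in 10 of 13 replication-dependent H2B and 6 of 8 H2A promoters, where paired H2A and H2B genes can share 1 intergenic stretch, against 1.63% of all promoters. The cyclic AMP response element TGACGTCA was in 7 of 47 members, none of them a linker gene, against 1.65% of all promoters. No motif of these lies within another, though matches may overlap in a promoter. These matches are letters in a window, and no binding was measured. The 5 motifs were chosen after some of these promoters had been read.

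Markers of the labelled cell type were present. STAR, which carries cholesterol into mitochondria, averaged 11.93 and CYP11A1, the side-chain cleavage enzyme, 11.18 on the log2 scale, while the median gene lay at 6.73. The endothelial marker CDH5 averaged 3.83, the immune marker PTPRC 3.50 and the chromaffin enzyme TH 3.91, all under the lower quartile of genes at 4.87. Other markers of their lists lay higher. By array, the 6 adrenal medulla markers averaged 5.70 to 5.89 and the 11 fibroblast, endothelial and immune markers 4.96 to 5.16. The 8 adrenocortical markers averaged 9.09 to 9.38. No adrenal medulla marker of 6 passed the limma test in any comparison, nor an unadjusted p of 0.05, and of 11 fibroblast, endothelial and immune markers COL3A1 alone passed the adjusted limma test, between torcetrapib and angiotensin II (log2 difference -0.36). At an unadjusted p under 0.05, 2 of the 11 passed there, 3 between angiotensin II and DMSO and 0 between torcetrapib and DMSO. The summed linear signal of 8 adrenocortical markers ran from 11594 to 12007 with torcetrapib, from 12956 to 13991 with angiotensin II and from 10296 to 11282 with DMSO. A sign of RNA quality also moved with treatment. The 5′ minus 3′ control signal of ACTB and GAPDH, averaged on the log2 scale, was -0.28, -0.22 and -0.23 on the torcetrapib arrays, against -0.62, -0.63 and -0.60 on the angiotensin II arrays and -0.72, -0.28 and -0.50 on the DMSO arrays. The torcetrapib arrays held the 3 highest values, though replicate 1 (-0.2751) barely exceeded DMSO replicate 2 (-0.2758). In an exact two-sided permutation test, torcetrapib against angiotensin II and torcetrapib against DMSO both gave p = 0.1, the smallest that 3 against 3 arrays allow. The same exact test gave p = 0.5 for angiotensin II against DMSO. With GAPDH alone, the exact test gave p = 0.3 for torcetrapib against DMSO. The part of the marker sums in the differences below was not tested, nor was that of the index apart from treatment. Torcetrapib and angiotensin II arrays did not overlap in the index and hardly varied in it within their groups. In fits that include the index, its slope rests mostly on the DMSO arrays, so these fits cannot tell index from treatment.

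Histone probe sets ranged over most of the array's scale. Of the 50 members 40 averaged above the lower quartile of genes. The replication-independent H2AZ1 averaged 13.54, a level above that of 99.7% of genes, and H2AZ2 averaged 13.01. Among single-symbol probe sets, the brightest of replication-dependent genes were H2BC12 at 12.17, H1-2 at 11.46, H2BC21 at 11.05, H2AC25 at 9.88, H2BC6 at 9.46 and H2AC6 at 9.13. Probe sets differ in affinity, so these levels do not order the genes by their RNA.

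Torcetrapib raised 1 histone gene against DMSO. H1-3, which encodes the somatic linker histone H1.3, rose 2.30-fold, and no other histone gene passed the test. The count was 1 of 50 in either direction (2%), where 1.16% of all genes were called. It was 1 higher, where 0.592% of all genes were called higher, and 0 lower, where 0.566% were called lower. At an unadjusted p under 0.05, 6 members were higher and 2 lower (8 of 50, where 13.3% of all genes passed). The median log2 difference of the members was 0.01, against -0.03 over all genes. The 3 torcetrapib arrays lay wholly above the 3 DMSO arrays for 10 members and wholly below for 1, so 22% of members did not overlap, where 16.5% of all genes did not. By direction, arrays lay wholly above for 6.04% of all genes and wholly below for 10.5%.

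H1-3 gave the clearest difference. Its log2 values were 9.79, 9.54 and 9.57 on the torcetrapib arrays, against 8.48, 7.64 and 8.44 on the angiotensin II arrays and 8.46, 8.72 and 8.12 on the DMSO arrays. Every torcetrapib array lay above all of the other 6, and the angiotensin II and DMSO arrays overlapped. The log2 difference of torcetrapib minus DMSO was 1.20 ± 0.18 (SE, 95% interval 0.82 to 1.59), with an adjusted p of 0.00325 by limma and Benjamini-Hochberg over all genes. Angiotensin II minus DMSO was -0.25 ± 0.18 (interval -0.63 to 0.14, adjusted p = 0.594 in the same limma fit). The 5′ to 3′ index of DMSO replicates 1, 2 and 3 was -0.72, -0.28 and -0.50, beside H1-3 values of 8.46, 8.72 and 8.12. Without DMSO replicate 2 the torcetrapib minus DMSO difference was 1.35 and still called (limma adjusted p = 0.000897). With the 5′ to 3′ index as a covariate it was 1.05 and the call ended (limma, adjusted p = 0.127). The call also ended without the intensity trend of the variance (adjusted p = 0.0708) and with robust moderation (adjusted p = 0.0876), while the difference itself was unchanged at 1.20 in both. H1-3 has 1 probe set, which carries no other symbol.

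The other somatic linker genes did not pass the test against DMSO. H1-2, which encodes H1.2, had log2 values of 11.70, 11.59 and 11.57 with torcetrapib, against 11.28, 11.25 and 11.45 with angiotensin II and 11.42, 11.46 and 11.46 with DMSO. Its torcetrapib arrays lay above all the others, by a narrow margin over DMSO. Torcetrapib minus DMSO was 0.18 ± 0.05 (SE, limma adjusted p = 0.115). H1-4, which encodes H1.4, had 7.08, 6.96 and 6.93 with torcetrapib, against 6.94, 6.08 and 7.07 with angiotensin II and 6.92, 6.40 and 6.91 with DMSO. Its torcetrapib and DMSO arrays did not overlap but almost touched, and 1 array in each of the other groups was far below its partners (difference 0.25 ± 0.20, limma adjusted p = 0.667). H1-1 and H1-5 gave torcetrapib minus DMSO differences of -0.14 (interval -0.45 to 0.16) and 0.07 (interval -0.17 to 0.30). The testis linker gene H1-6 gave -0.03.

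**Figure D1:**
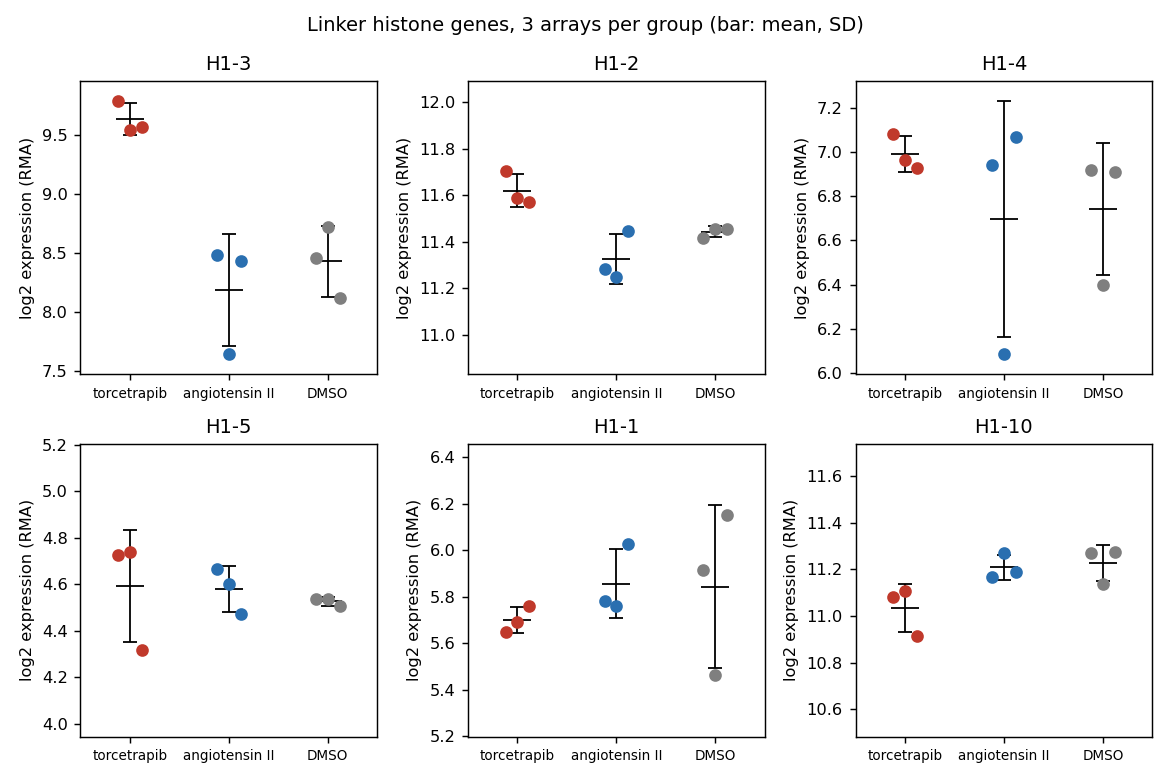
Log2 expression (RMA) of 6 linker histone genes on each array, by group, with the mean and SD of 3 arrays as bars; every panel has its own axis. The torcetrapib points of H1-3 sit between 9.54 and 9.79, above all 6 other arrays, while those of H1-1 and H1-5 overlap the other groups.

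**Figure D2:**
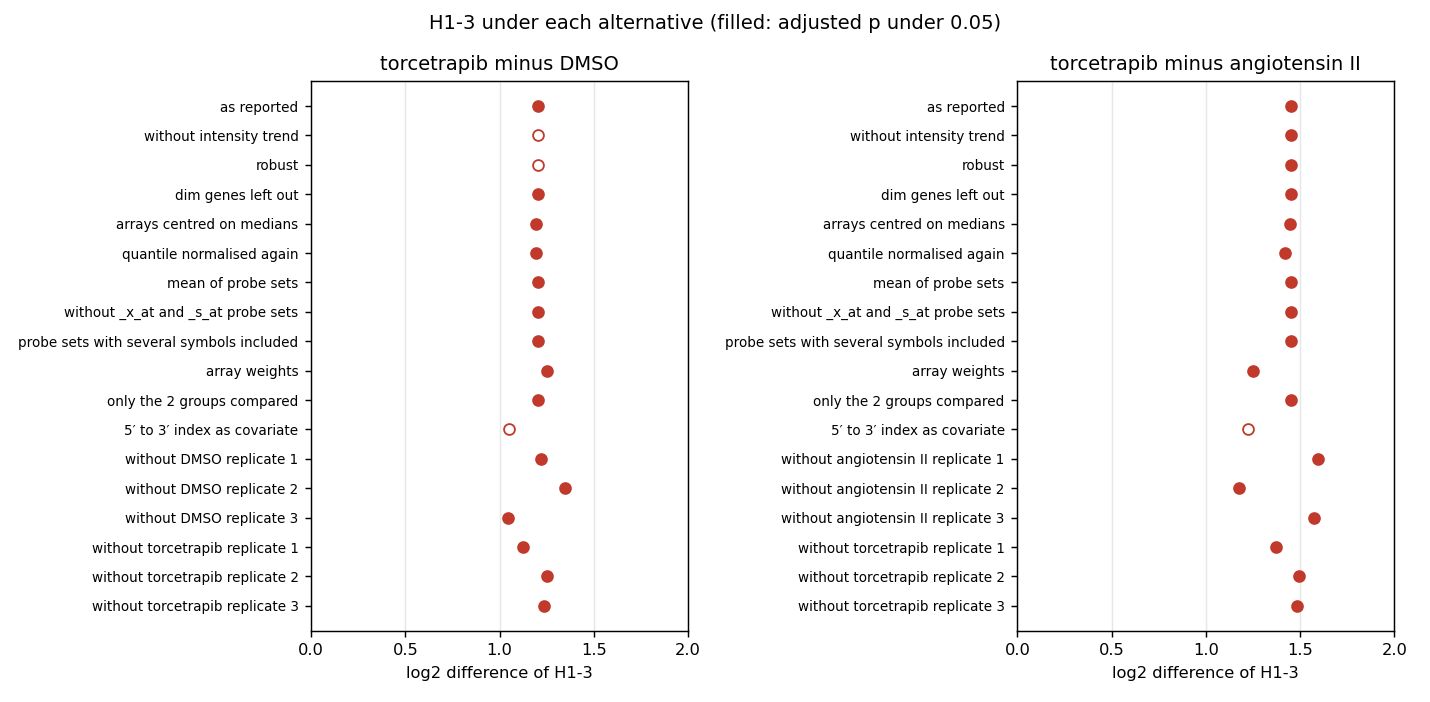
Log2 difference of H1-3 under each alternative setting, torcetrapib minus DMSO on the left and torcetrapib minus angiotensin II on the right; filled points have an adjusted p under 0.05. All points lie above 1, and the fit with the 5′ to 3′ index is open in both panels.

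Core and replication-independent histone genes did not pass the test between torcetrapib and DMSO. The differences of the 49 members other than H1-3 ran from -0.21 to 0.33, and their 95% intervals reached no further than -0.47 and 0.68. Of 42 replication-dependent genes 25 were above 0, and of 7 replication-independent genes 1 was, with medians of 0.03 and -0.08. Over all genes, 7729 of 19775 were above 0 and the median was -0.03. The types were not tested against each other. H2BC17, a replication-dependent H2B gene, had the largest difference after H1-3, 0.33 ± 0.11 (SE, limma adjusted p = 0.197). H1-10, the replication-independent linker gene, and H2AX, whose protein is phosphorylated at DNA breaks, gave -0.19 and -0.13 (adjusted p = 0.103 and 0.293 in the limma fit).

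**Figure D3:**
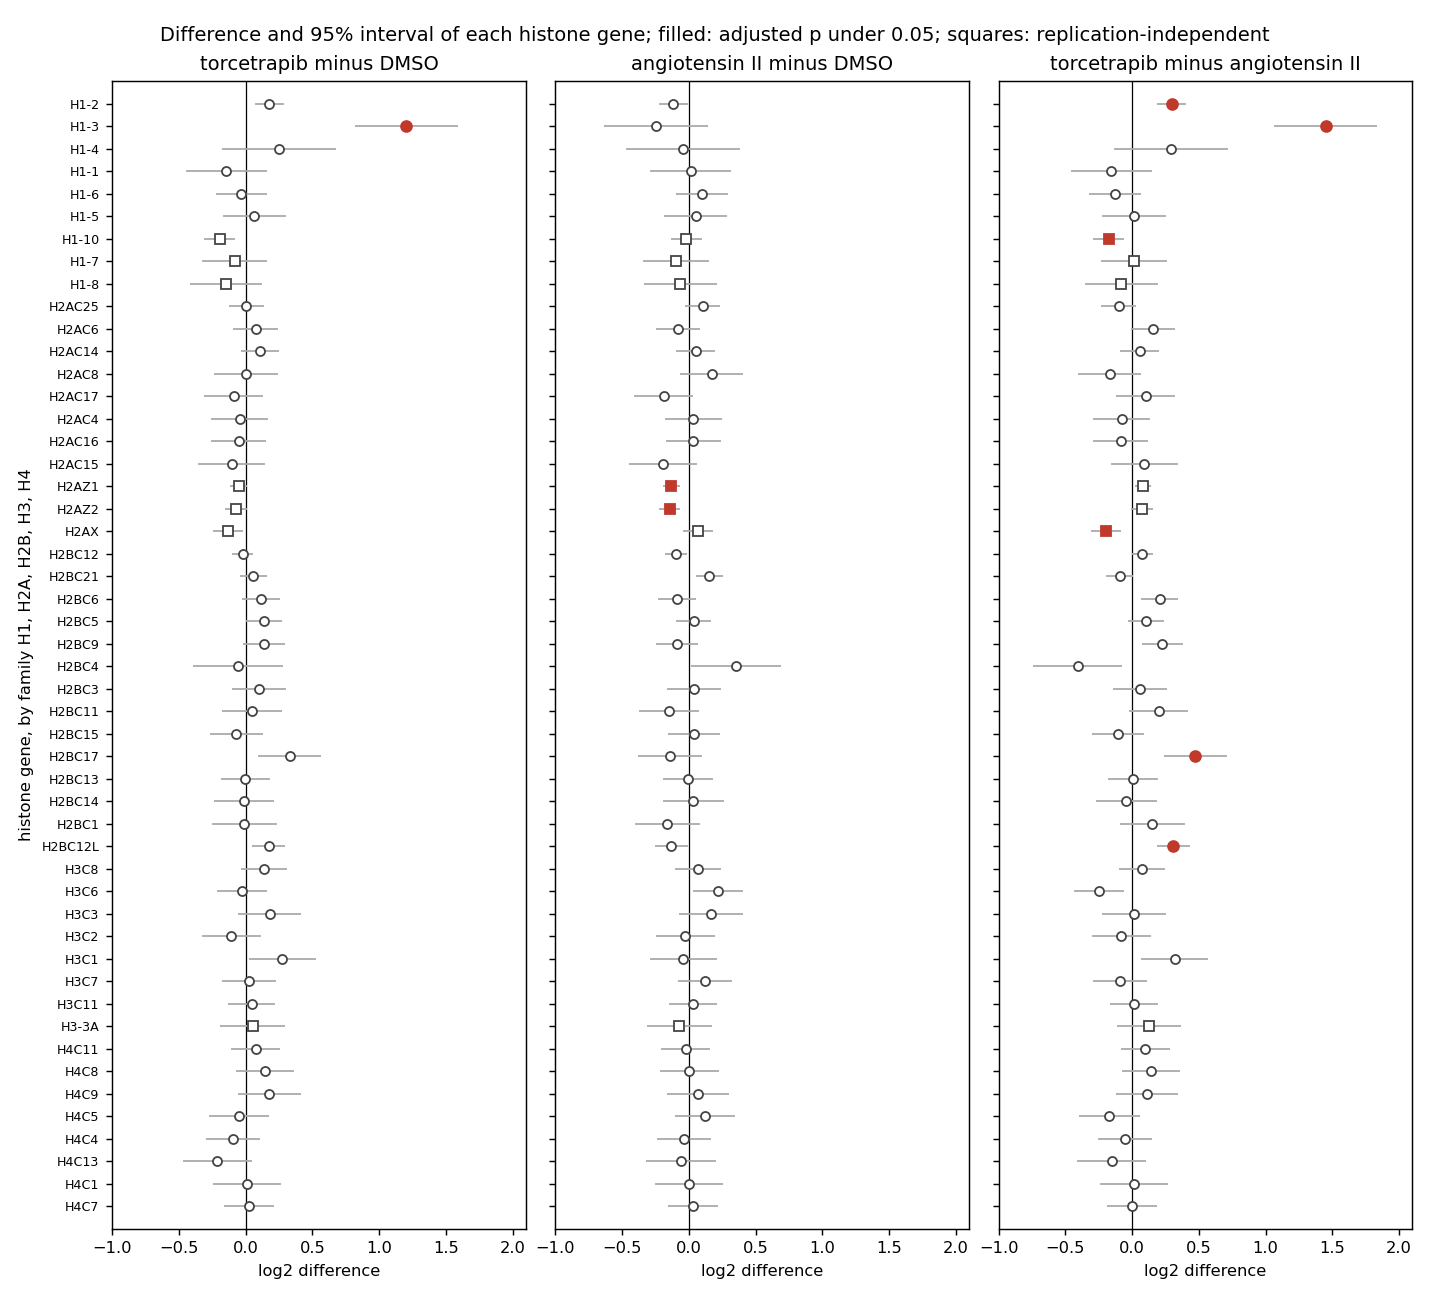
Log2 difference and 95% interval of each of the 50 histone genes in the 3 comparisons, grouped by family from H1 at the top to H4; squares are replication-independent genes and filled symbols have an adjusted p under 0.05. The intervals of most members span 0, and H1-3 stands at 1.20 and 1.45 in the torcetrapib comparisons.

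Set against angiotensin II at the same dose and time, torcetrapib gave more calls. H1-3, H1-2, H2BC12L and H2BC17 were higher and H2AX and H1-10 lower with torcetrapib. That is 4 of 50 higher, where 4.61% of all genes were called higher, and 2 of 50 lower, where 6.68% were called lower, so 12% of members were called beside 11.3% of all genes. At an unadjusted p under 0.05, 12 members passed, where 24.8% of all genes did. Arrays did not overlap for 18% of members and for 28.6% of all genes. They lay wholly above for 6 members and wholly below for 3, against 10.3% and 18.4% of all genes. The median log2 difference was 0.01 over the members and -0.04 over all genes. This comparison shares its torcetrapib arrays with the one above.

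Among the linker genes, H1-3 was 2.73-fold higher with torcetrapib than with angiotensin II, at the array values given above (log2 difference 1.45 ± 0.18 SE, interval 1.06 to 1.84, limma adjusted p = 8.10e-05). Angiotensin II replicate 2 held the lowest value, and without it the difference was 1.18 and still called (adjusted p = 6.00e-05). Once the limma fit held the 5′ to 3′ index it was 1.22 and the call ended (adjusted p = 0.0807). H1-2 was higher with torcetrapib by 0.30 ± 0.05 (SE, limma adjusted p = 0.00131), and H1-4, with a difference of 0.29 ± 0.20, did not pass (adjusted p = 0.396). H1-10 had 11.08, 11.11 and 10.91 with torcetrapib, against 11.17, 11.27 and 11.19 with angiotensin II and 11.27, 11.14 and 11.28 with DMSO. Its torcetrapib arrays lay below all 6 others. It fell by 0.18 on the log2 scale relative to angiotensin II, close to the threshold (limma adjusted p = 0.0490), and the call ended in 9 of 16 alternatives. With the 5′ to 3′ index as a covariate the difference was -0.06 (adjusted p = 0.930).

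Of the core genes, H2BC17 had 4.87, 4.75 and 4.70 with torcetrapib, against 4.46, 4.08 and 4.35 with angiotensin II and 4.26, 4.51 and 4.56 with DMSO. All 3 torcetrapib arrays were above the rest. The log2 difference from angiotensin II was 0.47 ± 0.11 (SE, limma adjusted p = 0.0119), at a mean level under the lower quartile of genes. The call ended without angiotensin II replicate 2 (0.37, adjusted p = 0.0567) and without torcetrapib replicate 1 (0.42, adjusted p = 0.0621). H2BC12L, an H2B gene whose probe set is of a type that can bind several transcripts (_x_at), had 10.89, 10.86 and 10.81 with torcetrapib, against 10.57, 10.47 and 10.61 with angiotensin II and 10.55, 10.80 and 10.69 with DMSO. Torcetrapib was highest and angiotensin II lowest on average, and DMSO overlapped angiotensin II. Torcetrapib minus angiotensin II was 0.31 ± 0.06 (SE, limma adjusted p = 0.00277). With that index added to the limma fit, the calls of H1-2, H2BC17 and H2BC12L ended too (log2 differences of 0.26, 0.28 and 0.10).

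H2AX had 11.41, 11.53 and 11.31 with torcetrapib, against 11.64, 11.53 and 11.68 with angiotensin II and 11.60, 11.49 and 11.54 with DMSO. Torcetrapib and angiotensin II met at 11.53, so the groups touched. The fall of 0.20 relative to angiotensin II (log2 difference -0.20 ± 0.05 SE, limma adjusted p = 0.0244) was not shared by all 4 of its probe sets, whose differences were -0.20, -0.30, 0.14 and 0.23. With their mean the difference was -0.03 and the call ended (adjusted p = 0.748), and with the 5′ to 3′ index as a covariate it was -0.12 and the call ended too (adjusted p = 0.784). It ended in 8 alternatives in all, among them the fits without angiotensin II replicate 1 or 3 and without torcetrapib replicate 1 or 3.

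**Figure D4:**
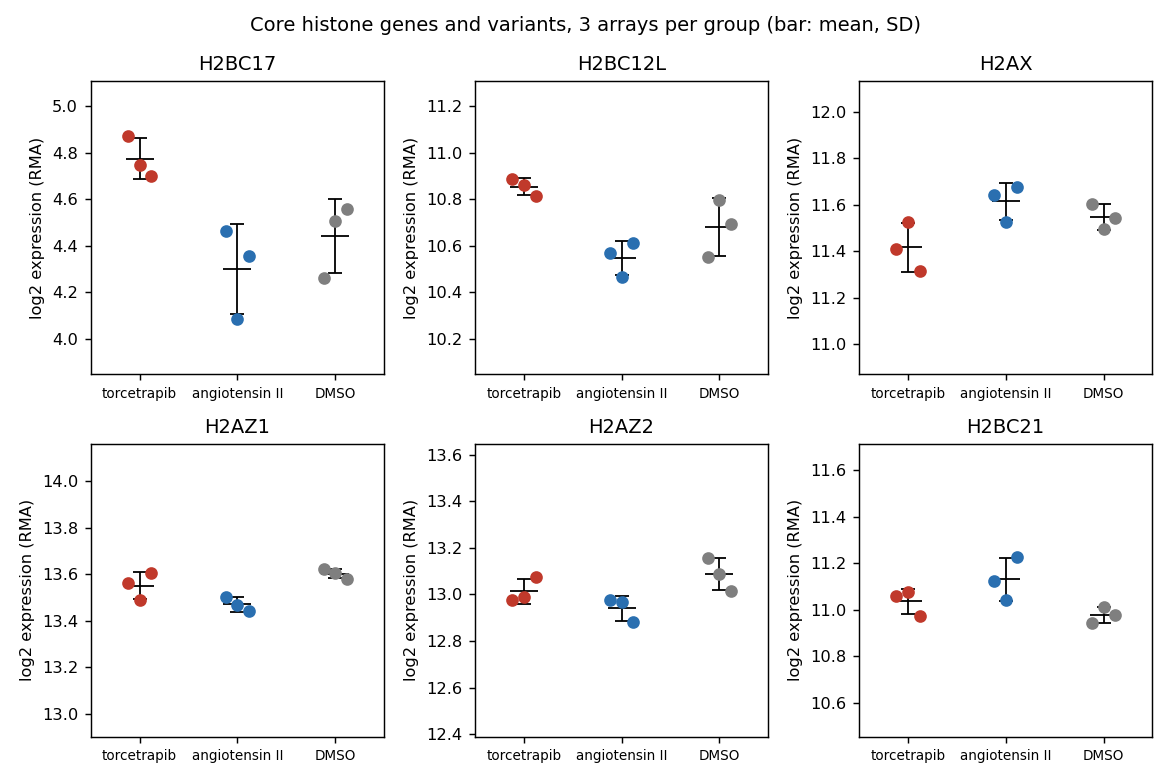
Log2 expression (RMA) of 6 core histone genes and variants on each array, by group, with the mean and SD of 3 arrays as bars; every panel has its own axis. H2BC17 and H2BC12L are highest on the torcetrapib arrays, and the angiotensin II arrays of H2AZ1 (13.44 to 13.50) lie below the DMSO arrays (13.58 to 13.62).

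Angiotensin II gave 2 histone calls against DMSO, both lower by small amounts. They were the genes of the H2A variant H2A.Z, which sits at promoters. None of the 42 replication-dependent genes was called by limma, while 3 were higher and 2 lower at an unadjusted p under 0.05. The count was 2 of 50 in either direction (4%), where 6.12% of all genes were called. It was 2 lower, where 2.76% of all genes were called lower, and 0 higher, where 3.36% were called higher. At an unadjusted p under 0.05, 3 members were higher and 5 lower (8 of 50, where 16.5% of all genes passed). The median log2 difference of the members was -0.0036, against 0.0105 over all genes, and arrays did not overlap for 12% of members and 17.6% of all genes. They lay wholly above DMSO for 3 members and wholly below for 3, against 9.26% and 8.37% of all genes. This comparison uses the same DMSO arrays as that of torcetrapib.

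H2AZ1 had 13.50, 13.47 and 13.44 with angiotensin II, against 13.62, 13.60 and 13.58 with DMSO, and the torcetrapib arrays had 13.56, 13.49 and 13.60. The angiotensin II arrays were all below the DMSO arrays, 1.10-fold on average. The log2 difference was -0.13 ± 0.03 (SE, limma adjusted p = 0.0110). A second probe set gave -0.09 (limma adjusted p = 0.0529 over all single-symbol probe sets). The call ended without angiotensin II replicate 3 (-0.12, adjusted p = 0.0504) and without the intensity trend (adjusted p = 0.280). H2AZ2 had 12.98, 12.97 and 12.88 with angiotensin II, against 13.16, 13.09 and 13.02 with DMSO. Its groups did not overlap either, and all 4 of its probe sets gave negative differences, from -0.15 to -0.08. None of the 4 passed limma over all single-symbol probe sets (adjusted p from 0.0756 to 0.482). In the fit over genes, the brightest gave -0.15 ± 0.04 (SE, limma adjusted p = 0.0349). That call ended in 7 of 17 alternatives, among them the fits without DMSO replicate 1 or 2 and without angiotensin II replicate 2 or 3. Another was the limma fit without the intensity trend (adjusted p = 0.291). Torcetrapib minus DMSO was -0.05 for the brightest probe set of H2AZ1 and -0.07 for that of H2AZ2, neither past the test. Their other probe sets turned the direction in part, with 0.01 for H2AZ1 and 0.19, 0.04 and -0.04 for H2AZ2 (limma adjusted p from 0.0674 to 0.914). Torcetrapib minus angiotensin II was 0.08 for the brightest probe set of H2AZ1 (limma adjusted p = 0.0940), which was called in 3 of its alternatives, and 0.10 for its second (adjusted p = 0.0151). For H2AZ2 it was 0.07 for the brightest (adjusted p = 0.266), and 1 of the other 3 was called (0.27, adjusted p = 0.00257).

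The other replication-independent genes did not pass between angiotensin II and DMSO. H2AX gave 0.07, H1-10 gave -0.02, the H3.3 gene H3-3A gave -0.07, the spermatid linker gene H1-7 gave -0.10 and the oocyte linker gene H1-8 gave -0.06. The H3-3A probe set averaged 6.18, under the median gene at 6.73. Probe sets that H3-3A shares with H3-3B averaged 8.50 to 13.34 and gave differences from -0.12 to 0.19. Among the brightest replication-dependent genes, H2BC21 gave 0.15 ± 0.05 (SE, limma adjusted p = 0.0810), with 11.12, 11.04 and 11.23 against 10.94, 11.01 and 10.98 on the DMSO arrays, which did not overlap. It was called in 3 of 16 alternatives. H1-2 gave -0.12 (interval -0.23 to -0.01, limma adjusted p = 0.243) and was called in 2 of 17, with array weights and without angiotensin II replicate 3. H2BC12 gave -0.10, H2AC25 gave 0.10, H2BC6 gave -0.09 and H2AC6 gave -0.08. The 48 members that were not called ran from -0.25 to 0.35. The highest of them, H2BC4, was picked after its values were seen. Its arrays, at 6.54, 6.16 and 6.69 with angiotensin II and 6.16, 5.75 and 6.42 with DMSO, overlapped.

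Arrays of 1 group differed more in some linker genes than in most genes. The SD within groups was 0.33 for H1-3 and 0.36 for H1-4, above 99.7% and 99.8% of genes, while the median gene had 0.10. H1-1 had 0.22. For H1-4 the low arrays were angiotensin II replicate 2 and DMSO replicate 2. Angiotensin II replicate 2 held its group's lowest value in 28 of 50 members (56%) and in 42.3% of all genes, and in 26 of the 42 replication-dependent genes. Torcetrapib replicate 3 was lowest of its group in 29 of 50 members (58%) and in 46.5% of all genes. The part of these arrays in the differences was not tested beyond leaving each out.

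Near-identical copies limit what the core genes can show. A further 28 probe sets carry several histone symbols, and 20 histone genes, H3-3B among them, are found on such probe sets alone. None of the 28 was called between torcetrapib and DMSO by limma, where 1.09% of 42892 named probe sets were. At an unadjusted p under 0.05, 7 of them passed, where 14.2% of named probe sets did. Over the 19775 genes, each read from 1 single-symbol probe set, 7729 differences were above 0, with a median of -0.03. Of the 28 shared probe sets, 21 had differences above 0, with a median of 0.10. The largest, of H4 probe sets that carry 14 symbols, were 0.38, 0.36 and 0.33, and none passed the limma test (adjusted p = 0.216, 0.197 and 0.310). Between angiotensin II and DMSO the limma test called none, where 3.65% of named probe sets were called, 4 passed at an unadjusted p under 0.05, where 14.1% did, and 14 were above 0. Between torcetrapib and angiotensin II 1 was called, where 11.7% of named probe sets were. It is an H2B probe set shared by H2BC4, H2BC6, H2BC7, H2BC8 and H2BC10, higher with torcetrapib by 0.29. At an unadjusted p under 0.05, 7 of the 28 passed there, where 24.9% of named probe sets did. Differences above 0 numbered 21, with a median of 0.06. These probe sets overlap in the RNA they bind, so they are not independent.

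**Figure D5:**
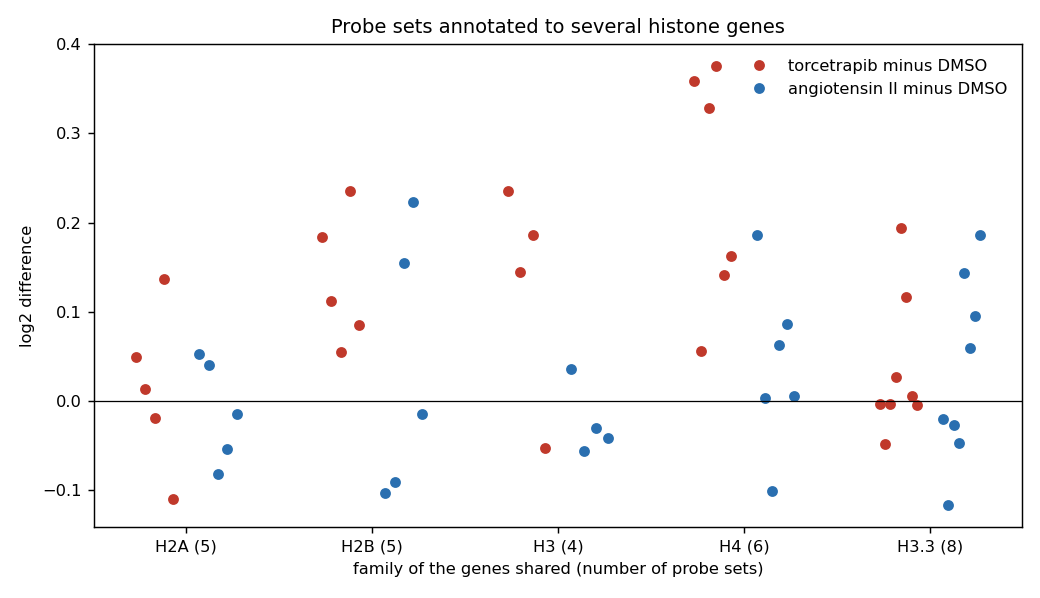
Log2 difference of each of 28 probe sets that carry several histone symbols, by family, torcetrapib minus DMSO in red and angiotensin II minus DMSO in blue. The red points of H4 reach 0.38, and the H3.3 points lie between -0.12 and 0.19; none of the points passed the test.

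Genes that make, store and degrade histone mRNA and protein were examined next, with shares over all genes of 1.16% called for torcetrapib and 6.12% for angiotensin II, each against DMSO. Of 14 genes of histone pre-mRNA processing and transcription, torcetrapib lowered 1, SUPT6H, an elongation factor and histone chaperone (log2 difference -0.45 ± 0.08 SE, limma adjusted p = 0.0152), and angiotensin II lowered 2, the cleavage complex subunit CPSF2 (-0.35) and the U7 snRNP subunit LSM11 (-0.35). Between the treatments, where 11.3% of all genes were called, 4 of the 14 were higher with torcetrapib and 1 lower. Higher were CPSF2 (0.41), the U7-associated ZNF473 (0.30), the stem-loop binding protein gene SLBP (0.15) and the Sm protein gene SNRPD3 (0.12). SUPT6H (-0.54) was lower. At an unadjusted p under 0.05, 8 of the 14 passed there, where 24.8% of all genes did. Of 10 genes of histone mRNA decay, angiotensin II raised the uridylyltransferase gene TUT7 (0.25) and the decapping cofactor gene PNRC2 (0.20), and the limma test called none with torcetrapib (3 at an unadjusted p under 0.05, where 13.3% of all genes passed). Relative to angiotensin II, PNRC2 was lower with torcetrapib (-0.21).

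None of 22 histone chaperone genes and none of 23 S-phase and DNA replication genes passed the limma test against DMSO in either treatment. At an unadjusted p under 0.05, 6 chaperone and 8 S-phase genes passed with torcetrapib, where 13.3% of all genes did, and 5 chaperone and 4 S-phase genes passed with angiotensin II, where 16.5% did. Between the treatments 11.3% of all genes were called. Relative to angiotensin II, torcetrapib arrays had more ASF1A (0.31), RBBP7 (0.12) and SSRP1 (0.29), which hand histones to DNA or remove them. They also had more MCM6 (0.16) of the replicative helicase, PCNA (0.12), the polymerase clamp, and RPA2 (0.23), which binds single-stranded DNA, and less of the transcription factors E2F1 (-0.32) and E2F2 (-0.36). The median log2 difference between the treatments was 0.01 over the S-phase genes and -0.02 over the chaperone genes, against -0.04 over all genes. Of 14 other chromatin proteins, angiotensin II raised HMGA1, an AT-hook protein, by 0.81 ± 0.11 (SE, limma adjusted p = 0.000210) and lowered HMGN1, which binds nucleosomes (-0.15), and the heterochromatin protein gene CBX3 (-0.14). With angiotensin II 9 of the 14 passed an unadjusted p of 0.05, where 16.5% of all genes did, and the list's median log2 difference was -0.10, against 0.01 over all genes. Torcetrapib lowered CBX5, a relative of CBX3 (-0.18), against DMSO, and 3 of the 14 passed the unadjusted p. Relative to angiotensin II, torcetrapib arrays had less HMGA1 (-0.80) and more HMGB3 (0.22), HMGN1 (0.18) and CBX1 (0.17).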

How the data were processed

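The authors deposited 1 log2 value per probe set and array, computed by robust multi-array averaging (RMA), as the submitters' processing notes record; software, version and chip description are not given in the sources used. Per the labels, a 96-well column kit gave the RNA, and biotin labelling followed Affymetrix's standard protocol. Each of the 9 arrays holds 54675 probe sets, and their number limits the precision.

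One gene symbol was annotated to 41091 probe sets, several to 1801, and 11721 had no symbol; 62 controls were left out. Each of 19775 genes was read from its brightest single-symbol probe set, by the mean of all arrays. In limma 3.58.1 (R 4.3.3), the 3 group means were estimated together for all genes (6 residual degrees of freedom), with moderated variances that follow intensity. Tests are two-sided. Benjamini-Hochberg adjustment ran over all 19775 genes in each comparison, and a gene was called at an adjusted p under 0.05. SEs and 95% intervals come from the moderated variances, and the intervals are unadjusted. Shared and second probe sets were fitted over all named or all single-symbol probe sets. The fit was tested on simulated data with known changes.

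The histone members and all gene lists were chosen with earlier results of these data known. Named with values were members called in any comparison, replication-independent members, somatic linker genes, the 6 brightest replication-dependent members, and called genes of the lists on histone mRNA processing, decay, chaperones, S phase and other chromatin proteins. Classes rest on older gene names. The adrenocortical, medulla and other cell type lists check the cell label. CYP21A2, NR0B1 and CD68 were not analysed here. Of the adrenocortical markers, angiotensin II raised FDX1, MC2R and STAR, torcetrapib raised FDX1, and FDX1, STAR and CYP17A1 were lower with torcetrapib than with angiotensin II. Promoters were searched with Python 3.11.15. Alternatives changed variance moderation, normalisation, the choice of probe set, array weights, the samples fitted, the threshold and the 5′ to 3′ index as a covariate, and left out each array.

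The series text lists angiotensin II among CETP inhibitors, which was not followed.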

Additional observations from a re-analysis of the deposited data

How the results depend on the processing

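No result changed sign while called, and the 5′ to 3′ index kept its direction with either control gene alone. Counts of histone genes called moved with the setting, as did the share of all genes called. For torcetrapib against DMSO, 1 was called higher as reported, against 0 without the intensity trend, 0 with robust moderation, 0 with the 5′ to 3′ index and 4 with array weights; 0 were called lower as reported, against 1 with array weights. The share of all genes called, 1.16% as reported, was 0.253% without the trend, 1.37% with robust moderation, 0.384% with the index and 6.43% with array weights. Leaving out each array gave 1 to 2 higher and 0 to 1 lower, both highest without DMSO replicate 2, where 4.64% of all genes were called. For torcetrapib against angiotensin II, 4 were called higher as reported, against 8 with array weights, 0 with the index and 7 at an adjusted p under 0.1; leaving out each array gave 3 to 5. The share of all genes called, 11.3% as reported, was 31.4% with array weights, 1.42% with the index and 16.2% at 0.1. There 2 were called lower as reported, against 1 without the trend, 4 after quantile normalisation and 5 with array weights. They were 0 with arrays centred, with the mean of probe sets, with the index and at an adjusted p under 0.01. The fit without _x_at and _s_at probe sets held 37 members, and 9.25% of its genes were called. It held no probe set of H2AX or H1-10, so it could not test these 2 calls. Without angiotensin II replicate 1 or 3 or torcetrapib replicate 1 or 3 the count called lower was 0 too, within a range of 0 to 2. The share of all genes was 7.54% without the trend, 15.5% after quantile normalisation, 8.39% with arrays centred and 5.58% at 0.01. For angiotensin II against DMSO, 2 were called lower as reported, against 1 with the mean of probe sets, 1 with only both groups fitted, 0 without the trend and 0 at an adjusted p under 0.01, and 1 to 2 with each array left out. The share of all genes called, 6.12% as reported, was 4.82% with the mean of probe sets, 4.34% with only both groups, 4.25% without the trend and 3.88% at 0.01. There 0 were called higher as reported, against 1 after quantile normalisation (8.11% of all genes), 2 with array weights (13.7%), 1 at an adjusted p under 0.1 and 0 to 1 with each array left out. In the array weights, the angiotensin II arrays received 6.15 (replicate 1), 0.448 (replicate 2) and 0.480 (replicate 3). The cause of these moves was not tested, beyond the fewer samples or probe sets that some alternatives use. No paired analysis was possible because the labels give no replicate number shared between groups. Dim members have the least certain values: 10 of 50 averaged under the lower quartile of genes.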

Other observations

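Histone genes whose symbols lie outside the prefixes were read from their brightest probe sets. There, torcetrapib minus DMSO was 0.01 for MACROH2A1, -0.01 for MACROH2A2, 0.07 for H2AJ and -0.14 for H3-4 on the log2 scale, and angiotensin II minus DMSO was -0.05, -0.03, 0.04 and -0.02. None of these differences passed the limma test over all single-symbol probe sets. Of 7 probe sets of MACROH2A1, which encodes a large H2A variant, 1 was called higher with torcetrapib than with angiotensin II (0.45, limma adjusted p = 0.0186), and its brightest gave 0.06. The pseudogenes H2AC5P, H4C10P and H1-9P gave torcetrapib minus DMSO differences of -0.21, 0.04 and -0.11, none past the test, and H2AC5P lay lower on all 3 torcetrapib arrays than on the other 6.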
